A study of Mus musculus with 32 samples.

Results

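Expression of 10 glutathione S-transferase genes was examined in bulk RNA-Seq of mouse kidney cortex. They were the rows of the deposited count table with the symbols Gsta1, Gsta2, Gsta3, Gsta4 and Gm10639 (alpha class), Gstm1, Gstm2, Gstm3 and Gstm4 (mu class) and Mgst1 (microsomal class), 10 of 32544 genes in the table. The samples were 32 mice of the Col4a3tm1Dec line on the C57BL/6J background, all 25 weeks old. Control mice were heterozygous (Col4a3+/-) and Alport mice homozygous (Col4a3-/-) for the disrupted collagen gene, so the controls also carried 1 copy of the allele. From 10 weeks of age the mice ate a purified diet, either alone (vehicle) or with nicotinamide riboside (NR) at 0.5% by weight, and each of the 8 combinations of sex, genotype and treatment held 4 mice. The study's methods say that litters were balanced over the groups, but the labels name no litter, so the litter could not be used here.

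Glutathione S-transferases join the thiol of glutathione to reactive, electrophilic molecules, which makes them more soluble and easier to export. The alpha and mu enzymes are soluble dimers, and Mgst1 sits in the membranes of the endoplasmic reticulum and mitochondria. In the kidney the alpha class is best known from the proximal tubule. NR is a precursor of the coenzyme NAD+, and Alport syndrome is a hereditary disease of the type IV collagen in the glomerular basement membrane that leads to kidney failure.

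Several members are near copies of each other, so their sequences are shown before their counts. On chromosome 9 of the mm10 build the GENCODE M21 annotation places Gsta4 (chr9:78182774-78209349, plus strand), Gsta1 (chr9:78230656-78242684, plus), Gm3776 (chr9:78257129-78269166, plus), Gm10639 (chr9:78289923-78305525, plus) and Gsta2 (chr9:78331018-78355788, minus) next to each other. Gm3776 is a further alpha-class gene, and no row of that name was used here. For identities and shared windows the longest protein-coding transcript of each gene was used. Those of Gsta1 and Gm3776 were identical at 99.5% of aligned bases, Gsta1 and Gsta2 at 97.2%, Gsta1 and Gm10639 at 96.7% and Gsta2 and Gm10639 at 98.3%. Gsta3 (chr1:21240589-21265661, plus) and Gsta4 stood further apart, at 73.3% and 67.1% identity to Gsta1. The 4 sequences below are the same 60 coding bases, positions 469 to 528 counted from the start codon, chosen because Gsta1, Gm3776, Gm10639 and Gsta2 differ most there. Capitals mark the 6 positions at which the 4 genes are not all alike, and each stretch lies within 1 coding exon.
Gsta1, exon 6, chr9:78241581-78241640, plus strand: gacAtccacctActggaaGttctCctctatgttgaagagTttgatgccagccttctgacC
Gm3776, exon 6, chr9:78268064-78268123, plus strand: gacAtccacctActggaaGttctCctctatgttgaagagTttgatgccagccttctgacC
Gm10639, exon 7, chr9:78304426-78304485, plus strand: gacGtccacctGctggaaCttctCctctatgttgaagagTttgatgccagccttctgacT
Gsta2, exon 6, chr9:78332105-78332164, minus strand: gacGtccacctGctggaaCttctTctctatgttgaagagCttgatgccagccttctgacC
Gsta1 and Gm3776 had the same 60 bases, and over the first 666 coding positions they differed at 2. Gsta2 differed from Gsta1 at 13 of those positions and Gm10639 at 17. Of all 50-base windows of this Gsta1 transcript, 89.7% occurred letter for letter in another gene, and 82.9% occurred in Gm3776. The same share was 64.2% for Gsta2 and 48.0% for Gm10639, and it was 0 for Gsta3, Gsta4, Gstm4 and Mgst1. With 100-base windows it was still 81.8% for Gsta1, 35.0% for Gsta2 and 29.98% for Gm10639. Counts of Gsta1, Gsta2 and Gm10639 are therefore uncertain as values of single genes, because the way reads common to them were assigned is not given in the sources used here.

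The mu genes form a second cluster on chromosome 3, with Gstm3 (chr3:107963696-107969283), Gstm2 (chr3:107981702-107986453), Gstm1 (chr3:108012255-108017973) and Gstm4 (chr3:108040408-108044894) all on the minus strand. Their transcripts were less alike, from 87.6% identity between Gstm1 and Gstm3 to 74.5% between Gstm3 and Gstm4. The share of 50-base windows found in another gene was 28.8% for Gstm3, 23.1% for Gstm1 and 9.36% for Gstm2. Mgst1 lies alone on chromosome 6 (chr6:138140316-138156755, plus).

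The upstream sequences of the alpha genes are shown because members with near-identical coding sequence had different levels and responses. Each is the 250 bases before the RefSeq transcript start in GRCm38.p6. The Gsta2 stretch lies inside the gene as GENCODE M21 places it, downstream of that annotation's outermost start at chr9:78355788. In the Gm10639 and Gsta2 sequences capitals mark bases that are unlike the aligned base of Gsta1 or have no aligned base, and in the Gsta3 sequence they mark a motif match.
Gsta1, chr9:78230419-78230668, plus strand: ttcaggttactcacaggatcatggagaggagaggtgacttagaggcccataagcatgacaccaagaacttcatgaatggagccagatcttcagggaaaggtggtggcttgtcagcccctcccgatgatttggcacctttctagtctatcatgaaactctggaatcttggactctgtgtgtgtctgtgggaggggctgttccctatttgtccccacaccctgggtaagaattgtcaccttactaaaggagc
Gm10639, chr9:78289678-78289927, plus strand: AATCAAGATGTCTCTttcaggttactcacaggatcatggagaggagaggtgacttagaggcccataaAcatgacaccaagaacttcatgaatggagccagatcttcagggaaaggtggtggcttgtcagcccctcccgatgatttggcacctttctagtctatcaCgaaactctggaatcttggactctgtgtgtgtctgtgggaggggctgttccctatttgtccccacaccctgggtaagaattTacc
Gsta2, chr9:78347146-78347395, minus strand: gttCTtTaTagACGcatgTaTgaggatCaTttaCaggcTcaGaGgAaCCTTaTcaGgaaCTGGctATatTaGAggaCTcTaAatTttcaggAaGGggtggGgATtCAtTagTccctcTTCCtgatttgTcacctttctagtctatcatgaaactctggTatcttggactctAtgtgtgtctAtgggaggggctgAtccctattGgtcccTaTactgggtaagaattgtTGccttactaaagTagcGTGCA
Gsta3, chr1:21240335-21240584, plus strand: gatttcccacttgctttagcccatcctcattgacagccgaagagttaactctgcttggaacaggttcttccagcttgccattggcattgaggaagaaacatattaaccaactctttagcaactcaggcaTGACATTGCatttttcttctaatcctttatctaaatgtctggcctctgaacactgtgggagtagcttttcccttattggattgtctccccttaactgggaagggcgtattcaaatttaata
Of the Gm10639 bases aligned to Gsta1, 232 of 235 were identical (98.7%), and of the Gsta2 bases 184 of 239 (77.0%). The last bases of the chromosome 9 windows lie inside the first exon of a GENCODE transcript. The core of the antioxidant response element, the site bound by NRF2 with small Maf proteins, was searched as TGACNNNGC on both strands from 250 bases before to 50 after the start. It was present for 2 of the 9 members with a RefSeq promoter entry, Gsta3 (TGACATTGC, 121 bases before the start) and Mgst1 (GCACGGTCA, the minus-strand form, 56 bases before the start and inside the first exon of GENCODE). Among all RefSeq promoters of this length 12.4% held it, and among genes 14.0%. A perfect DR1, the direct repeat of the PPAR and RXR half-site AGGTCA with 1 base between the copies, was searched on both strands and was in no member's window and in 0.0396% of all promoters. Such a match is only a description of the letters in this window.

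Total counts per mouse ranged from 16621944 to 27778797 with a median of 22071395. The Col4a3 count was lower in vehicle-treated Alport than in vehicle-treated control mice, with log2 differences of -1.40 in males and -1.19 in females at adjusted p of 7.25e-06 and 3.57e-05, by edgeR's quasi-likelihood test. The Y-linked genes matched the labelled sex in 32 of 32 mice. Levels below are CPM, that is read counts scaled to a common library size over all 32 mice. Changes are log2 fold changes with their standard error (SE) from edgeR's quasi-likelihood test on the 8 mice of a comparison, called at a Benjamini-Hochberg adjusted p under 0.05 over all genes tested.

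The 10 genes together took 0.0736% of all counts in vehicle-treated male control mice and 0.137% in vehicle-treated female control mice, as means of 4 mice. In NR-treated mice the mean share was 0.208% in male controls, 0.247% in female controls, 0.207% in male Alport mice and 0.266% in female Alport mice. Levels were also divided by the total length of a gene's exons, merged over all its protein-coding transcripts. By this measure Gsta2 had the highest level in vehicle-treated male control mice, at 267 ± 71 CPM per kilobase (SD, n = 4). Gstm1 followed at 214 ± 62, and these 2 neighbours overlapped. Gsta3 (76.3 ± 18), Mgst1 (35.4 ± 8.0), Gsta4 (22.3 ± 2.3) and Gstm2 (18.4 ± 2.1) came next, and Gsta4 and Gstm2 overlapped as well. Gstm4 (7.87 ± 0.52), Gm10639 (5.65 ± 0.76), Gsta1 (0.698 ± 0.33) and Gstm3 (0.0289 ± 0.036) were lowest. In vehicle-treated female control mice Gsta2 was again first at 548 ± 28 CPM per kilobase, ahead of Gstm1 at 192 ± 40. Gsta4 (148 ± 24) and Gm10639 (65.4 ± 12) stood higher in the female order than in the male one. Among these females Gsta4 overlapped Gstm1, and Gm10639 overlapped Gsta3 and Mgst1.

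**Figure D1:**
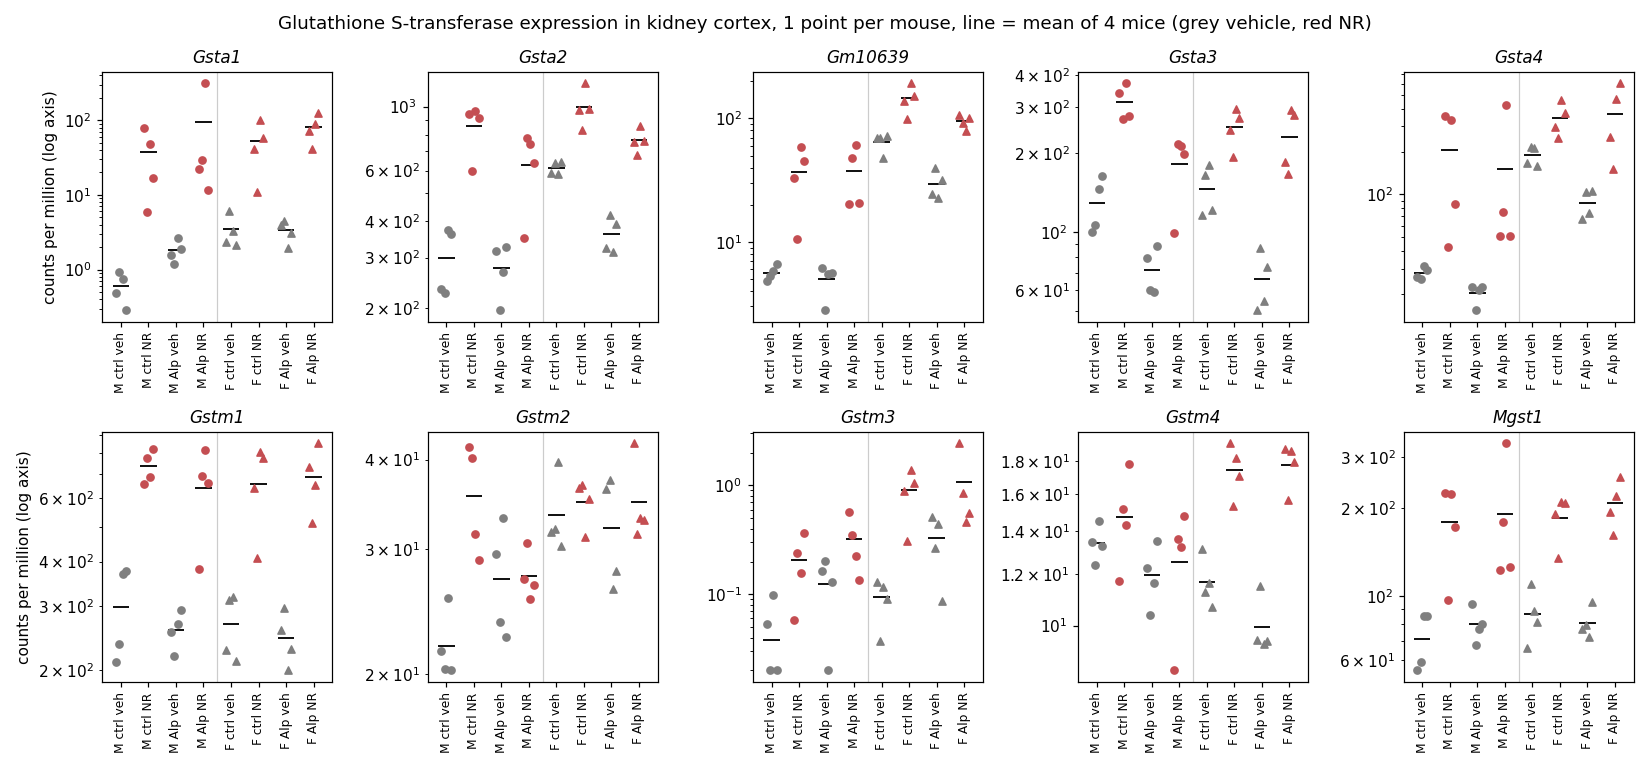
CPM of the 10 genes (log axes), 1 point per mouse, with the mean of 4 mice as a line, for males (M, circles) and females (F, triangles), control (ctrl) and Alport (Alp), vehicle (veh, grey) and NR (red), values of 0 drawn at 0.02. NR-treated mice lie above vehicle-treated mice of the same sex and genotype for Gsta1, with no overlap in any of the 4 pairs of groups, and Gstm3 stays at or below 2.43 in every mouse.

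In control mice NR raised most of the members. In males 8 of the 9 members tested rose and none fell, where 4.53% of the 14696 genes tested were called and 3.07% were called higher. In females 8 of 9 rose, where 6.31% of 14951 genes were called and 4.14% were called higher. In 1 fit of all 32 mice only Gstm1 was still called in female controls, among 18 of 16469 genes, and the other 7 had adjusted p from 0.0528 to 0.577, while in male controls that fit called 8 members. The median log2 fold change of the members tested was 1.35 in males and 0.87 in females, against a median of 0.00 over all genes in either sex. In both sexes the same number, 8 members, had all 4 NR-treated mice above all 4 vehicle-treated mice, as 7.34% of all genes did in males and 8.69% in females. The member that was not called was Gstm4 in males and Gstm2 in females.

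In female Alport mice NR raised 7 of the 9 members tested other than Gstm3, where 0.477% of 15712 genes were called and 0.388% were called higher. In females 8 of these 9 had all NR-treated mice above all vehicle-treated mice, as 5.14% of all genes did. In males none of the 9 members and none of the 15500 genes tested was called (0.00%) by edgeR's quasi-likelihood test. At an unadjusted p under 0.05 there were 7 of 9 members, all higher in NR-treated mice, where 5.06% of all genes passed and 2.72% were higher. In the same 7 genes the values of all 4 NR-treated Alport males lay above those of all 4 vehicle-treated Alport males, as 1.97% of all genes did. DESeq2 called 5 of the 9 members and gave no adjusted p for Gsta1 and Gsta4, so these were not judged by it. Called by limma-voom were 0. One edgeR fit of all 32 mice, in which the 8 groups share 1 estimate of the spread, called 7 members, all higher, among 88 of 16469 genes. The male count thus depended on the fit and on 1 mouse. Without replicate 1 of the NR-treated male Alport mice 7 of 9 members were called, all higher, and without any other single mouse none was. The female count also depended on single mice. It was 3 without replicate 1 or replicate 4 and 4 without replicate 3 of the vehicle-treated female Alport mice. Gsta2, Gsta3 and Gstm4 lost their calls in each of these cases and Gstm1 without replicate 1 or 4, with adjusted p from 0.0512 to 0.0724. Gstm4 also lost its call without replicate 3 of the NR-treated female Alport mice (adjusted p = 0.0590). The shares of all genes called with 1 mouse left out are not given here for either sex. These counts therefore do not set the members apart from other genes.

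Gsta1 showed the largest NR fold changes of the family. In vehicle-treated male control mice it was nearly silent at 0.478, 0.940, 0.739 and 0.285 CPM (9, 22, 15 and 6 reads). In NR-treated male control mice it was at 78.9, 5.81, 48.0 and 16.8 CPM, with the lowest NR-treated mouse still above every vehicle-treated one. The rise was 5.91 ± 0.84 on the log2 scale, or 60.3-fold (adjusted p = 0.0085, edgeR). Without replicate 1 of the NR-treated mice it was 5.25, and limma-voom gave an adjusted p of 0.107. In female controls the values were 2.31, 6.08, 3.33 and 2.15 CPM on vehicle and 41.0, 11.1, 99.5 and 58.1 CPM on NR. This was a 14.7-fold rise (3.88 ± 0.55, adjusted p = 0.0028, edgeR).

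In male Alport mice Gsta1 was at 1.58, 1.18, 2.67 and 1.87 CPM on vehicle and at 22.3, 29.6, 314.2 and 11.8 CPM on NR. The groups did not overlap, and replicate 3 stood far above the other NR-treated mice. The log2 difference was 5.68 ± 1.14 and was not called (adjusted p = 0.443, edgeR), and without replicate 3 it was 3.52. In female Alport mice the values were 3.95, 4.45, 1.95 and 3.05 CPM on vehicle and 71.1, 40.8, 88.7 and 125.7 CPM on NR. Gsta1 rose 24.5-fold there (4.61 ± 0.38, adjusted p = 0.0022, edgeR), with the NR-treated mice closer to each other than in the other 3 groups.

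Gsta2, the most highly counted alpha gene, moved less in proportion. In male controls it was at 233, 227, 374 and 362 CPM on vehicle and at 942, 596, 969 and 910.3 CPM on NR, a 2.88-fold rise (1.52 ± 0.21, adjusted p = 0.0073, edgeR). In female controls it was at 591, 639, 583 and 644 CPM on vehicle and at 969.6, 830.3, 1205 and 980.3 CPM on NR, a 1.62-fold rise (0.69 ± 0.10, adjusted p = 0.0032, edgeR). Neither pair of groups overlapped, and the vehicle-treated females were already above every vehicle-treated male. Among male Alport mice Gsta2 was at 315, 197, 268 and 325 CPM on vehicle and at 349.9, 779, 739.8 and 639 CPM on NR (1.17 ± 0.27, adjusted p = 0.627, edgeR). Replicate 1 of the NR-treated mice lay just above the highest vehicle-treated mouse. Among female Alport mice the values were 324, 419.5, 313 and 393 CPM on vehicle and 757, 679, 857 and 760.0 CPM on NR, a 2.12-fold rise (1.08 ± 0.13, adjusted p = 0.0102, edgeR).

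Gm10639 encodes a further alpha-class transferase and has the highest female-to-male ratio of the family. In male controls it was at 4.78, 5.34, 5.77 and 6.56 CPM on vehicle and at 33.2, 10.5, 58.3 and 45.2 CPM on NR, a 6.60-fold rise (2.72 ± 0.42, adjusted p = 0.0109, edgeR). In female controls it was at 69.9, 69.8, 47.6 and 72.5 CPM on vehicle and at 139, 99.6, 193 and 153 CPM on NR, a 2.24-fold rise (1.17 ± 0.18, adjusted p = 0.0037, edgeR). Without replicate 1 of the vehicle-treated male controls the male call was lost (adjusted p = 0.0530). The vehicle-treated females, at 47.6 CPM and above, reached or passed most NR-treated males. Among male Alport mice it was at 6.16, 2.80, 5.46 and 5.62 CPM on vehicle and at 20.2, 47.5, 61.5 and 20.8 CPM on NR (2.89 ± 0.42, adjusted p = 0.252, edgeR). Among female Alport mice it was at 24.2, 39.6, 22.6 and 31.5 CPM on vehicle and at 107, 91.2, 79.8 and 101 CPM on NR, a 3.23-fold rise (1.69 ± 0.18, adjusted p = 0.0073, edgeR). All 4 pairs of groups were without overlap.

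Because these 3 genes share much of their sequence, their counts were also added before the test. The sum rose with NR by 1.61 on the log2 scale in male controls (adjusted p = 0.0069) and by 0.80 in female controls (adjusted p = 0.0032). In Alport mice the sum gave 1.26 in females (adjusted p = 0.0098) and 1.41 in males, where it was not called (adjusted p = 0.572), all by edgeR. The share of the 3 genes in their sum was not fixed. Gsta1 took a median of 0.198% of it in vehicle-treated male controls and 3.10% in NR-treated ones, and 0.437% and 4.22% in female controls. In Alport mice its median share was 0.574% on vehicle and 4.57% on NR in males, and 0.836% and 8.12% in females. Gm10639 took a median of 1.89% in vehicle-treated male controls, against 9.92% in vehicle-treated female controls. Whether Gm3776 reads are among the counts of Gsta1 was not tested.

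**Figure D2:**
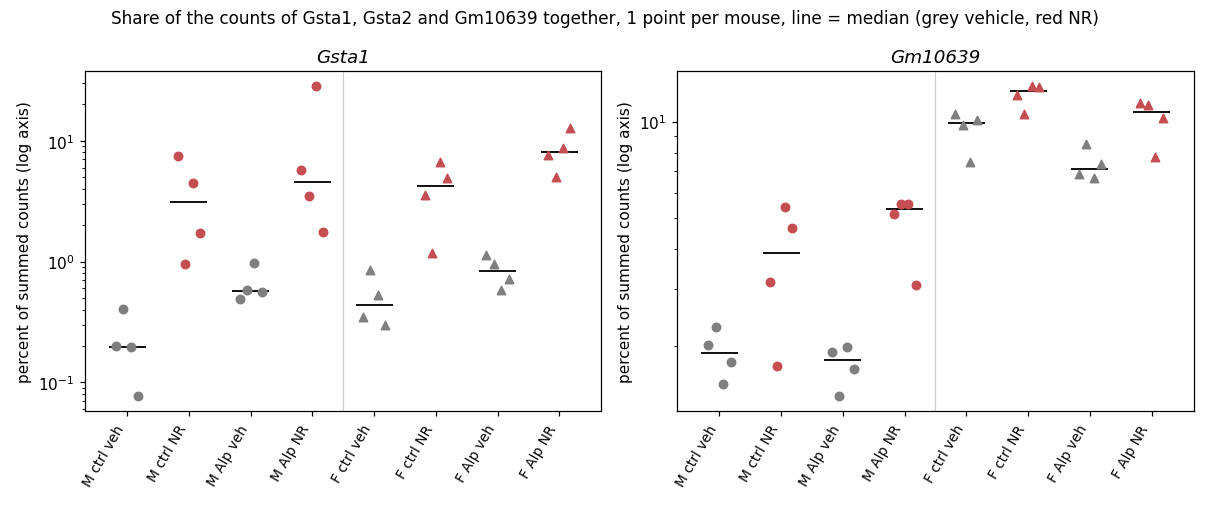
Percent of the summed counts of Gsta1, Gsta2 and Gm10639 that fell to Gsta1 (left) and to Gm10639 (right), on log axes, 1 point per mouse with the median of 4 mice as a line, vehicle in grey and NR in red. The Gsta1 share runs from 0.0773% to 1.12% in the 16 vehicle-treated mice and from 0.949% to 28.2% in the 16 NR-treated mice, and the Gm10639 share is higher in females than in males.

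Gsta3, an alpha enzyme whose longest protein-coding transcript shares no 50-base window with another gene, rose in 3 of the 4 NR comparisons. In male controls it was at 100.3, 106, 146 and 163 CPM on vehicle and at 341, 272, 371 and 279 CPM on NR, a 2.46-fold rise (1.30 ± 0.17, adjusted p = 0.0063, edgeR). In female controls it was at 116, 165, 179.9 and 121 CPM on vehicle and at 247, 194, 296 and 274 CPM on NR, a 1.73-fold rise (0.79 ± 0.15, adjusted p = 0.0132, edgeR). Neither pair overlapped. Among male Alport mice it was at 79.9, 59.8, 59.0 and 88.4 CPM on vehicle and at 99.3, 217, 213 and 199 CPM on NR (1.34 ± 0.26, adjusted p = 0.394, edgeR). Among female Alport mice it was at 50.3, 86.7, 54.4 and 73.5 CPM on vehicle and at 185, 166, 293 and 281 CPM on NR, a 3.51-fold rise (1.81 ± 0.24, adjusted p = 0.0130, edgeR). The 1 low NR-treated male Alport mouse was replicate 1.

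Gsta4 encodes the alpha enzyme known for conjugating 4-hydroxynonenal, an aldehyde from lipid peroxidation. In male controls it was at 26.4, 25.3, 31.6 and 29.5 CPM on vehicle and at 356, 42.4, 334 and 85.7 CPM on NR. The NR-treated males were split, with replicates 1 and 3 several times above replicates 2 and 4. The rise was 7.34-fold (2.88 ± 0.58, adjusted p = 0.0274, edgeR) and lost its call without any single mouse of that comparison other than replicates 2 and 4 of the NR-treated group, as it did by limma-voom (adjusted p = 0.0637). In female controls Gsta4 was at 165, 217, 210.3 and 159 CPM on vehicle and at 299, 248, 458 and 372 CPM on NR, a 1.83-fold rise (0.87 ± 0.17, adjusted p = 0.0129, edgeR).

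In male Alport mice Gsta4 was at 22.4, 15.4, 21.5 and 22.2 CPM on vehicle and at 51.4, 75.6, 424 and 51.3 CPM on NR. Replicate 3 again stood far above the others, and the log2 difference of 2.88 ± 0.70 (adjusted p = 0.685, edgeR) became 1.54 without it. In female Alport mice it was at 66.7, 104, 73.6 and 105.7 CPM on vehicle and at 251, 152, 469 and 604 CPM on NR. The groups did not overlap, but the difference of 2.08 ± 0.39 was not called (adjusted p = 0.0599, edgeR). It was called without replicate 1 (adjusted p = 0.0427) or replicate 2 (adjusted p = 0.0164) of the NR-treated female Alport mice.

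Gstm1, the most abundant mu transferase, rose in 3 of the 4 NR comparisons. In male controls it was at 211, 237, 369 and 378 CPM on vehicle and at 658, 777, 686 and 824 CPM on NR, a 2.48-fold rise (1.31 ± 0.19, adjusted p = 0.0087, edgeR). In female controls it was at 227, 312, 319 and 211 CPM on vehicle and at 642, 410.3, 808 and 776 CPM on NR, a 2.46-fold rise (1.30 ± 0.20, adjusted p = 0.0037, edgeR). In these controls the interaction of NR with sex was -0.01 on the log2 scale, with a 95% confidence interval from -0.60 to 0.58. In male Alport mice Gstm1 was at 255, 219, 269 and 293 CPM on vehicle and at 382, 692, 819 and 664 CPM on NR (1.30 ± 0.24, adjusted p = 0.394, edgeR). In female Alport mice it was at 257, 297, 199 and 228 CPM on vehicle and at 735, 514, 653 and 853 CPM on NR, a 2.82-fold rise (1.495 ± 0.18, adjusted p = 0.0097, edgeR). None of the 4 pairs of groups overlapped.

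Gstm4, a mu gene with low counts, was called for NR in females of both genotypes. It was at 13.5, 12.4, 14.5 and 13.3 CPM in vehicle-treated and at 11.7, 15.2, 14.3 and 17.8 CPM in NR-treated male controls (0.14 ± 0.13, adjusted p = 0.532, edgeR). In female controls it went from 13.1, 11.3, 11.6 and 10.7 CPM on vehicle to 19.1, 15.3, 18.2 and 17.0 CPM on NR, a 1.49-fold rise (0.57 ± 0.10, adjusted p = 0.0103, edgeR). The male groups overlapped and the female groups did not. Female Alport mice had 9.51, 11.5, 9.36 and 9.45 CPM on vehicle and 18.8, 15.7, 18.6 and 17.9 CPM on NR, a 1.79-fold rise (0.84 ± 0.12, adjusted p = 0.0141, edgeR). Male Alport mice had 12.3, 10.4, 11.6 and 13.5 CPM on vehicle and 8.52, 13.6, 13.2 and 14.8 CPM on NR (0.06 ± 0.19, adjusted p = 0.985, edgeR). The test of the difference between the sexes is given with the interactions.

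Gstm2 was called for NR in male controls, where it rose from 21.6, 20.3, 25.6 and 20.3 CPM on vehicle to 41.6, 40.2, 31.5 and 28.9 CPM on NR. This was a 1.63-fold rise (0.71 ± 0.14, adjusted p = 0.0252, edgeR). The call was lost without replicate 1, 2 or 4 of the vehicle-treated or replicate 1 of the NR-treated males, at adjusted p from 0.0602 to 0.0847. In female controls, male Alport mice and female Alport mice its log2 differences were 0.06 ± 0.09, 0.00 ± 0.14 and 0.13 ± 0.14, with adjusted p of 0.742, 0.9999 and 0.660 (edgeR). The difference of its NR change between male and female controls (adjusted p = 0.0894) and between control and Alport males (adjusted p = 0.39999) was not called by edgeR. Gstm3 was at 0 to 54 reads per mouse and at most 2.43 CPM. With all mice kept, it passed the filter on low counts only where the NR-treated female Alport mice entered, which had 54, 19, 10 and 15 reads. Its passing therefore rested on the group where it was high, and no call on it is used. NR-treated female controls had 18, 6, 22 and 22 Gstm3 reads and vehicle-treated female controls 3, 1, 3 and 2. The counts of Gstm1 to Gstm7 added together rose with NR in male controls (1.03, adjusted p = 0.0062), female controls (0.97, adjusted p = 0.0041) and female Alport mice (1.15, adjusted p = 0.0153), and gave 0.98 in male Alport mice (adjusted p = 0.558), all by edgeR.

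Mgst1, the membrane-bound member, rose in 3 of the 4 NR comparisons. In male controls it was at 55.4, 59.2, 85.4 and 85.1 CPM on vehicle and at 226, 96.9, 224 and 172 CPM on NR, a 2.54-fold rise (1.35 ± 0.26, adjusted p = 0.0225, edgeR). In female controls it was at 66.0, 110.03, 88.6 and 81.0 CPM on vehicle and at 191, 135, 209 and 208 CPM on NR, a 2.14-fold rise (1.10 ± 0.16, adjusted p = 0.0030, edgeR). In either sex every NR-treated control mouse was above every vehicle-treated one. Among male Alport mice Mgst1 was at 93.6, 68.0, 76.9 and 80.2 CPM on vehicle and at 123, 179, 334 and 126 CPM on NR (1.25 ± 0.31, adjusted p = 0.706, edgeR). Among female Alport mice it was at 76.8, 79.4, 72.2 and 95.1 CPM on vehicle and at 194, 162, 219.7 and 255 CPM on NR, a 2.59-fold rise (1.37 ± 0.15, adjusted p = 0.0073, edgeR). Without replicate 1, 2 or 4 of the vehicle-treated or replicate 1 or 3 of the NR-treated male controls, the male control call was lost, at adjusted p from 0.0544 to 0.0828.

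**Figure D3:**
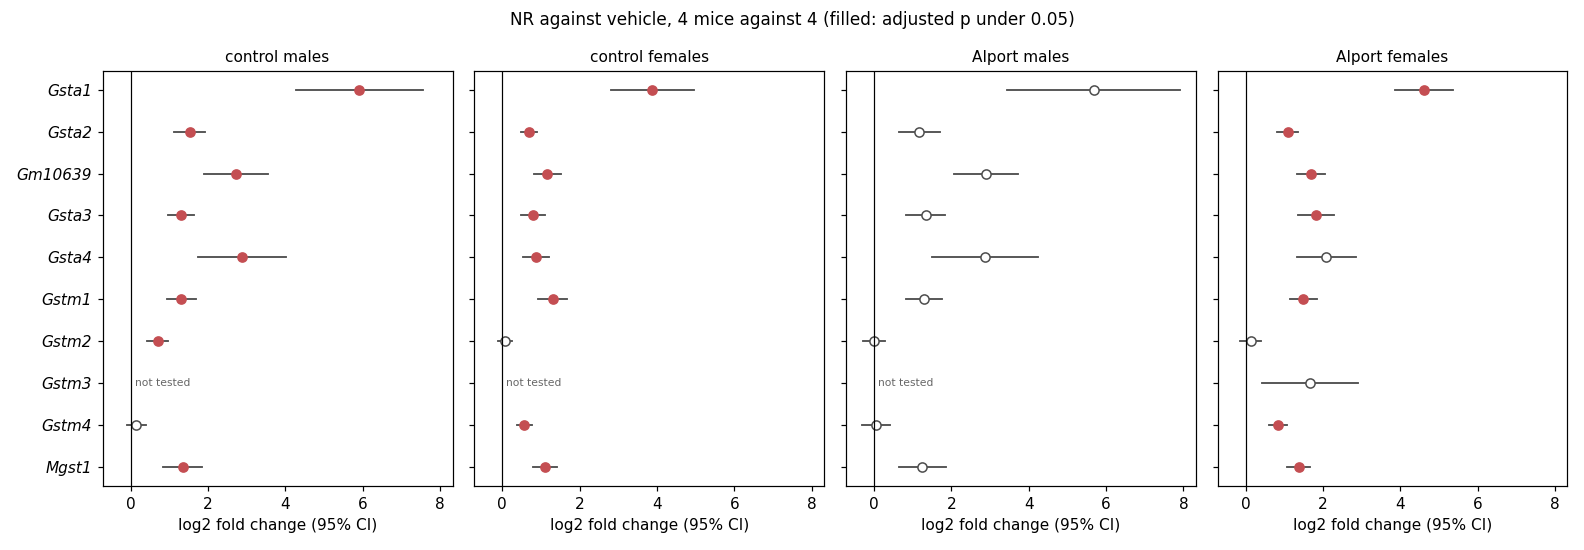
Log2 fold change of NR-treated against vehicle-treated mice for each gene, with its 95% confidence interval, in 4 panels by genotype and sex, 4 mice against 4, filled points marking an adjusted p under 0.05 by edgeR. Gsta1 has the largest change in each panel (5.91, 3.88, 5.68 and 4.61 in control males, control females, Alport males and Alport females), and no point is filled for Alport males.

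Markers of the proximal tubule differed between the NR-treated males as well. The summed CPM of 22 proximal tubule markers was 57554 to 60903 in vehicle-treated male controls. In NR-treated male controls, replicates 1 to 4 in order, it was 31442, 51988, 32725 and 50195. The 2 mice with the lowest sums, replicates 1 and 3, had the highest Gsta1 and Gsta4, and also the highest Gsta2, Gsta3 and Mgst1. The same mice had the lowest Gstm1 (658 and 686 CPM), Gstm4 (11.7 and 14.3 CPM) and, at few reads, Gstm3 of the group. Gm10639 and Gstm2 followed neither order. In NR-treated male Alport mice the sum was 13259, 36751, 8897 and 38749, and replicate 3, with the lowest sum, had the highest Gsta1, Gsta4, Gm10639 and Mgst1. Replicate 1, with the next lowest sum, did not follow: its Gsta1 (22.3 CPM) and Gsta4 (51.4 CPM) were below those of replicate 2, and its Gm10639 (20.2 CPM) and Mgst1 (123 CPM) were the lowest of the group. Kap, an androgen-dependent marker, is among the 22 and was at 10949 to 13297 CPM in vehicle-treated male controls. It was at 2094, 9848, 1430 and 5699 CPM in NR-treated male controls and at 902, 3838, 154 and 6383 CPM in NR-treated male Alport mice. Without Kap the sum was 44257 to 49105 in vehicle-treated male controls and 29349, 42140, 31295 and 44496 in NR-treated ones. That sum still held Cyp4b1, at 3587 to 5193 CPM in vehicle-treated male controls and 337 to 520 CPM in vehicle-treated female controls. In NR-treated male controls Cyp4b1 was at 1137, 3216, 1182 and 2369 CPM. None of the 22 markers was at 0 in any group. Of the 22 markers 3 fell and none rose with NR in male controls, where 4.53% of all genes were called in either direction. In bulk tissue fewer cells of a type and less RNA per cell cannot be told apart. The part of these markers in the Gsta1 and Gsta4 values was not tested.

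Other cell type markers differed as well. With NR in male controls 12 of 14 endothelial, 5 of 10 fibroblast and 4 of 11 injured-tubule markers rose. There 3.07% of all genes were called higher. In NR-treated female controls the proximal tubule sum was 35533 to 38909, against 32145 to 40289 on vehicle, and 3 of the 22 markers fell and none rose, as in male controls. In female Alport mice these sums were 17436 to 19800 on NR and 13706 to 24126 on vehicle, and 1 of the 22 fell and none rose. Of all genes 6.31% were called in female controls and 0.477% in female Alport mice, in either direction. The sums overlapped between NR and vehicle in females of both genotypes. Replicate 1 of the NR-treated male Alport mice, which had the lowest Gsta2, Gsta3 and Gstm1 of its group, had summed immune markers of 2296 CPM against 690 to 912 in the other 3, and summed injured-tubule markers of 11963 CPM against 3698 to 5160. The part of these markers in the members' values was not tested.

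**Figure D4:**
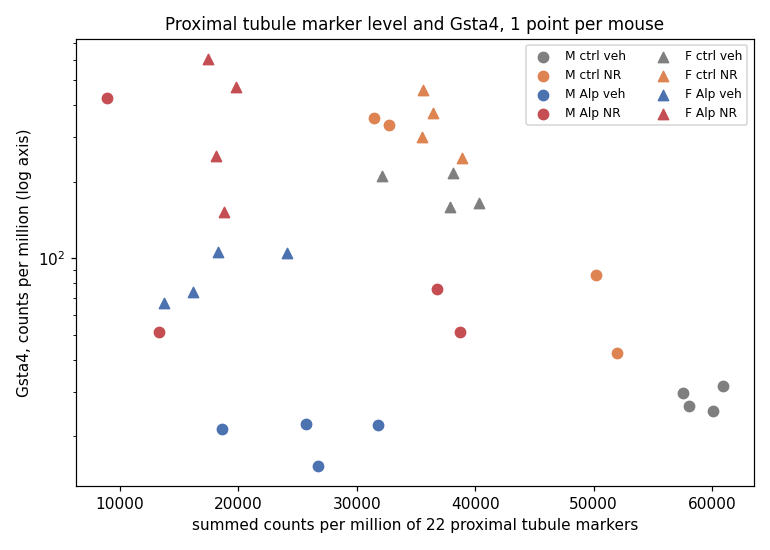
Gsta4 in CPM (log axis) against the summed CPM of 22 proximal tubule markers, 1 point per mouse, circles for males and triangles for females, colours by genotype and treatment. Among NR-treated males the points with the lowest marker sums of the controls (Gsta4 356 and 334) and the lowest of the Alport mice (424) have the highest Gsta4 of their group, while the Alport mouse with the next lowest sum has 51.4, and vehicle-treated males lie between 15.4 and 31.6 at every marker level.

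Without NR, some of the members were called between Alport and control mice, about as often as all genes were. In males 4 of 9 members were called, 2 higher and 2 lower, where 51.0% of 15286 genes were called, 26.8% higher and 24.2% lower. In females 4 of 9 were called, all lower, where 45.8% of 15709 genes were called and 21.8% were lower. The share of members called was thus close to that of all genes in both sexes. In 1 fit of all 32 mice Gsta3 was the only one of the male calls left, and of the female calls Gsta4 was lost (-1.10, adjusted p = 0.122, edgeR). The members' median log2 fold change was -0.08 in males and -0.19 in females, against 0.00 over all genes.

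Gsta3 fell in Alport mice of both sexes, to 0.590 times the control level in males (-0.76 ± 0.17, adjusted p = 0.0033) and, in females, to 0.467 times (-1.10 ± 0.20, adjusted p = 0.0012), by edgeR. Gsta4 fell to 0.766 times in males (-0.38 ± 0.12, adjusted p = 0.0222) and, in females, to 0.479 times (-1.06 ± 0.17, adjusted p = 0.0006), by edgeR. Gsta2 and Gm10639 fell in females, by 0.72 ± 0.11 (adjusted p = 0.0004) and 1.10 ± 0.18 (adjusted p = 0.0008) on the log2 scale. In males their differences were -0.03 ± 0.19 and -0.08 ± 0.23, with adjusted p of 0.920 and 0.793 (edgeR). Gsta1 rose 3.13-fold in males, between levels of at most 2.67 CPM (1.65 ± 0.38, adjusted p = 0.0036, edgeR), and differed by -0.02 ± 0.35 in females (adjusted p = 0.970, edgeR). The summed counts of Gsta1, Gsta2 and Gm10639 fell by 0.75 in females (adjusted p = 0.0005) but differed by -0.02 in males (adjusted p = 0.936), so the male rise of Gsta1 was not visible in the sum.

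Of the mu class only Gstm2 was called, in males, at 1.32 times the control level (0.40 ± 0.13, adjusted p = 0.0222, edgeR). That call was lost, at adjusted p from 0.0534 to 0.0696, without any single mouse except replicate 3 of the controls and replicates 2 and 4 of the Alport mice, and Gsta4 was lost in males without replicate 3 (adjusted p = 0.0617) or replicate 4 (adjusted p = 0.0538) of the controls. Gstm1, the main mu transferase, differed by -0.12 ± 0.18 in males and -0.09 ± 0.16 in females, with adjusted p of 0.609 and 0.696 (edgeR). The 95% confidence intervals ran from -0.47 to 0.23 and from -0.40 to 0.23. Mgst1 differed by 0.25 ± 0.15 in males and -0.06 ± 0.14 in females, with adjusted p of 0.194 and 0.767 (edgeR).

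Alport cortex had lower proximal tubule and higher immune, fibroblast and injured-tubule markers. Of 22 proximal tubule markers 21 fell in males (median -1.14) and 19 fell and 1 rose in females (median -0.96). All 10 fibroblast and all 11 injured-tubule markers rose in both sexes, as did 19 of 19 immune markers in males and 17 of 19 in females. Of all genes 26.8% were higher and 24.2% lower in males, and 24.0% and 21.8% in females. Gsta3 fell by less than the median proximal tubule marker in males and by more in females. The part of cell composition in the falls of the alpha genes was not tested.

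NR-treated Alport mice were also set against vehicle-treated controls, to see where the members stood relative to untreated healthy cortex. These comparisons share their mice with those above. In males 7 of 9 members were higher and none lower, where 21.2% of 15077 genes were called and 14.4% were higher. In females, leaving out Gstm3, 7 of 9 were higher and none lower, where 23.5% of 15381 genes were called and 11.9% were higher. Gstm1 was 2.23-fold higher in males (1.16 ± 0.28, adjusted p = 0.0202) and 2.59-fold higher in females (1.37 ± 0.18, adjusted p = 0.0010), and Mgst1 2.78-fold (1.48 ± 0.33, adjusted p = 0.0143) and 2.42-fold (1.27 ± 0.17, adjusted p = 0.0011), by edgeR. Neither gene was called between vehicle-treated Alport and control mice. Among the alpha genes that had fallen in Alport females, Gsta2 was 1.25-fold (adjusted p = 0.0322), Gm10639 1.47-fold (adjusted p = 0.0191) and Gsta3 1.60-fold (adjusted p = 0.0416) above control, by edgeR. Gsta2 lost this call without any single control mouse or replicate 3 of the NR-treated mice, and Gsta3 without replicate 1, 2 or 4 of the controls or replicate 3 or 4 of the NR-treated mice, at adjusted p from 0.0580 to 0.120. Gsta2 (adjusted p = 0.283) and Gm10639 (adjusted p = 0.256) were also not called in 1 edgeR fit of all 32 mice.

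Gsta4 was at 0.98 ± 0.35 in that female comparison (adjusted p = 0.0713, edgeR), and was called without replicate 2 of the NR-treated mice (adjusted p = 0.0117). In males Gsta3, which fell in vehicle-treated Alport mice, was at 0.56 ± 0.26 (adjusted p = 0.155, edgeR) in NR-treated ones, and it was called higher without replicate 1 of the NR-treated mice (0.74, adjusted p = 0.0266). Gsta1 was 23.3-fold above control in females (4.54 ± 0.41, adjusted p = 0.0002, edgeR). In males its fold change of 7.30 ± 1.28 on the log2 scale (adjusted p = 0.0064, edgeR) was 5.15 without replicate 3 of the NR-treated mice, and that of Gsta4 (2.47 ± 0.67, adjusted p = 0.0299) was 1.14. The count of male calls was as low as 2 without replicate 1 or 2 of the vehicle-treated controls, when Gsta1 and Gm10639 were left. Gsta4 lost its call without any single vehicle-treated control, and Gstm2 (0.38 ± 0.11, adjusted p = 0.0416, edgeR) without any single mouse except replicate 3 of either group.

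The sexes differed in the alpha class before any disease or treatment. In vehicle-treated controls 5 of 9 members were higher in females and none lower, where 31.7% of 14990 genes were called and 15.9% were higher. Gm10639 was 11.7-fold higher (3.55 ± 0.15, adjusted p = 1.54e-08) and Gsta4 6.78-fold higher (2.76 ± 0.12, adjusted p = 2.50e-08) in females, by edgeR. Gsta1 was 5.71-fold (adjusted p = 0.0010), Gsta2 2.09-fold (adjusted p = 0.0004) and Gstm2 1.55-fold (adjusted p = 0.0010) higher. Of these calls that of Gsta1 was lost in 1 edgeR fit of all 32 mice (adjusted p = 0.124). Gsta3, Gstm1, Gstm4 and Mgst1 were not called, with log2 differences between -0.17 and 0.31. In vehicle-treated Alport mice 2 of 9 members were higher in females, where 3.84% of 15791 genes were called and 1.81% were higher. They were Gm10639 (5.86-fold, adjusted p = 0.0005) and Gsta4 (4.29-fold, adjusted p = 0.0002), by edgeR, and for both the 4 females lay above the 4 males, as 6.38% of all genes did. In controls this held for 5 members and 14.2% of all genes. The summed counts of Gsta1, Gsta2 and Gm10639 were higher in control females (1.19, adjusted p = 0.0002) but gave 0.48 in Alport mice, which was not called (adjusted p = 0.151, edgeR). Gsta1 and Gsta2 gave 0.87 ± 0.31 (adjusted p = 0.161) and 0.39 ± 0.16 (adjusted p = 0.231) in Alport mice.

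**Figure D5:**
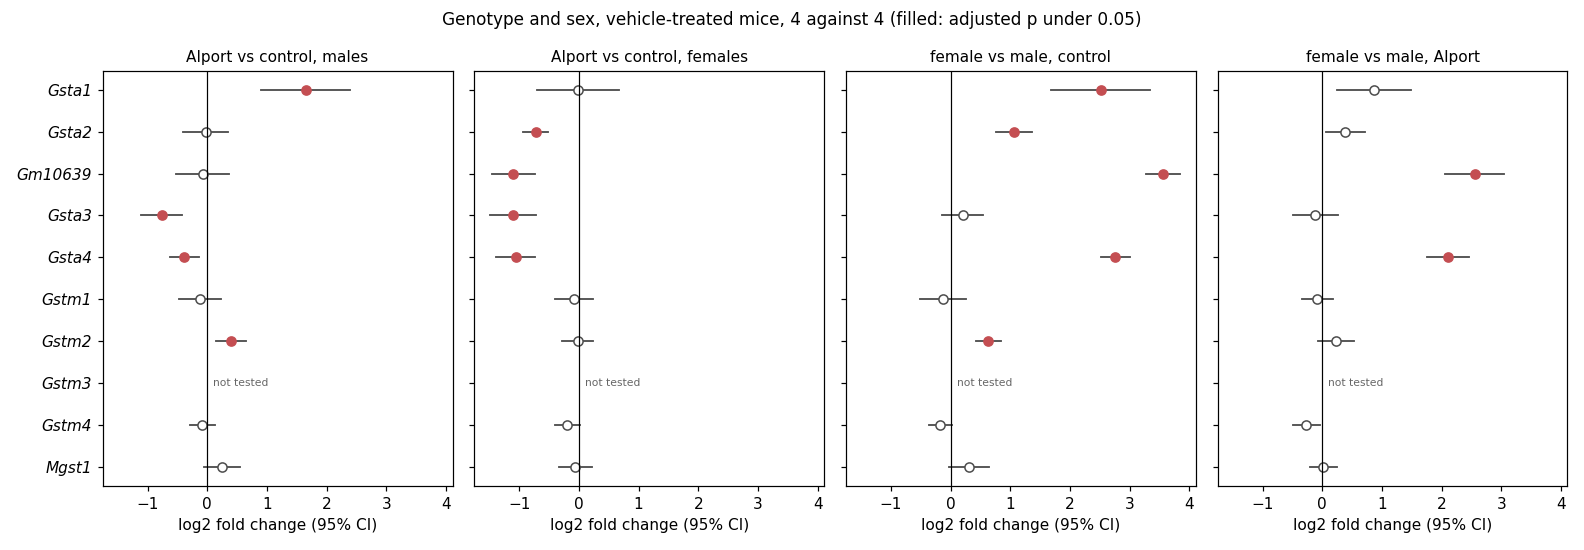
Log2 fold change with its 95% confidence interval for each gene in vehicle-treated mice, Alport against control in males and females and female against male in control and Alport mice, 4 mice against 4, filled points marking an adjusted p under 0.05 by edgeR. In females Gsta2, Gm10639, Gsta3 and Gsta4 lie below 0, and Gm10639 (3.55 in control and 2.55 in Alport mice) and Gsta4 (2.76 and 2.10) are higher in females than in males of both genotypes.

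Whether these effects differed was tested by interaction terms over the 16 mice concerned. None of the members was called in any of the 5 interactions by edgeR's quasi-likelihood test. For sex and genotype, 0.285% of 16152 genes passed, and at an unadjusted p under 0.05 there were 5 of 9 members, all lower, where 9.31% of all genes were lower. These were Gm10639 (-1.05 ± 0.31, adjusted p = 0.160), Gsta4 (-0.71 ± 0.23, adjusted p = 0.203), Gsta1 (-1.69 ± 0.56, adjusted p = 0.206), Gsta2 (-0.73 ± 0.25, adjusted p = 0.225) and Gstm2 (-0.45 ± 0.20, adjusted p = 0.371), all with the Alport difference lower in females. DESeq2 and limma-voom called 0 members there.

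For NR and sex in control mice, 0.683% of 15379 genes passed, and 5 of 9 members had an unadjusted p under 0.05, 4 of them lower and 1 higher, where 8.36% of all genes were lower and 7.63% higher. The NR change of Gsta4 (-1.995 ± 0.63, adjusted p = 0.136), Gm10639 (-1.55 ± 0.48, adjusted p = 0.128), Gsta2 (-0.82 ± 0.25, adjusted p = 0.120) and Gstm2 (-0.64 ± 0.17, adjusted p = 0.0894) was smaller in females, and that of Gstm4 was larger (0.43 ± 0.16, adjusted p = 0.193). DESeq2 called Gsta2 and Gstm2. Without replicate 2 of the NR-treated male controls edgeR called Gm10639 (adjusted p = 0.0056), Gsta4 (adjusted p = 0.0148) and Gsta2 (adjusted p = 0.0307), and without replicate 4 it called Gstm2 (adjusted p = 0.0196) and Gsta4 (adjusted p = 0.0412). In Alport mice 0.00% of 16189 genes passed for NR and sex, and at an unadjusted p under 0.05 1.43% of genes were lower and 0.809% higher. Leaving out Gstm3, the 2 of 9 members with such a p were Gm10639 (-1.22 ± 0.47, adjusted p = 0.99996) and Gstm4 (0.76 ± 0.22, adjusted p = 0.99996). DESeq2 and limma-voom called 0 of them.

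For NR and genotype, 0.00% of 15800 genes passed in males and 0.00% of 16064 in females. At an unadjusted p under 0.05 there was 1 of 9 members in males, lower, where 6.27% of all genes were lower. In females, leaving out Gstm3, there were 3 of 9, higher, where 4.66% of all genes were higher. The male one was Gstm2 (-0.72 ± 0.20, adjusted p = 0.39999), with a smaller NR change in Alport mice. The female ones were Gsta3 (1.01 ± 0.30, adjusted p = 0.398), Gsta4 (1.198 ± 0.45, adjusted p = 0.452) and Gsta2 (0.38 ± 0.17, adjusted p = 0.509), with a larger NR change in Alport mice. DESeq2 and limma-voom called 0 members in either sex. Gsta1, whose NR change was the largest, had an interaction of -0.27 with a confidence interval from -3.22 to 2.69 in males and of 0.71 with one from -0.75 to 2.16 in females.

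The remaining glutathione transferases were read as a list, of which 18 genes were tested. With NR 4 rose in male controls, 5 in female controls, 1 in female Alport mice and 0 in male Alport mice, and none fell. The shares of all genes called higher were 3.07%, 4.14%, 0.388% and 0.00%, in the same order. Gstp1, the main pi-class gene, rose in male controls (0.79, adjusted p = 0.0092), female controls (0.97, adjusted p = 0.0097) and female Alport mice (1.12, adjusted p = 0.024), by edgeR. Gsto1 (0.86 in males, 0.28 in females) and Mgst3 (0.67 and 0.27) rose in controls of both sexes. Gstm7 (0.57) rose in male controls, and Gstm6 (1.26) and Gstp2 (0.80) in female controls. In the male Alport comparison 4 of the 18 had an unadjusted p under 0.05, as 5.06% of all genes did. The list's median there was 0.21 against 0.01 over all genes. Without NR, Alport males had 2 of the 18 higher and 6 lower than control males, and Alport females 2 higher and 8 lower than control females. Of all genes 26.8% were higher and 24.2% lower in males, and 24.0% and 21.8% in females. Gstk1, a mitochondrial and peroxisomal transferase, fell by 1.05 on the log2 scale in Alport mice of either sex, and Hpgds, the prostaglandin D synthase of hematopoietic cells, rose by 2.83, next to the rise of the immune markers.

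Enzymes that make and recycle glutathione were read as a further list. Of 20 genes tested in each comparison, 2 rose in male controls (Slc3a2 0.51 and Oplah 0.55), 4 in female controls (Glrx, Gsr, Slc25a39 and Slc1a1), 1 in female Alport mice (Glrx 0.73) and 0 in male Alport mice, with none falling. The shares of all genes called higher were 3.07%, 4.14%, 0.388% and 0.00%, in the same order. In male Alport mice 3 of the 20 had an unadjusted p under 0.05, as 5.06% of all genes did. The list's median log2 fold change lay between 0.06 and 0.17 in these 4 comparisons. Without NR, 14 of the 20 fell and 1 rose in male Alport mice, and 15 fell and 0 rose in female ones. The shares of all genes that were lower were 24.2% in males and 21.8% in females.

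A further list held 14 genes for conjugate export and mercapturate formation, among them the proximal tubule markers Slc22a6 and Slc22a8. With NR 2 rose and 1 fell in male controls, 3 rose in female controls and 1 rose in female Alport mice. The shares of all genes called in either direction were 4.53%, 6.31% and 0.477%, in the same order. In male Alport mice 0 of the 14 were called, and 2 had an unadjusted p under 0.05, as 5.06% of all genes did. Abcc4, an efflux pump of organic anions, rose in male controls (2.12), female controls (0.87) and female Alport mice (1.49, adjusted p = 0.015, edgeR). Abcc3, a related pump, rose by 3.41 in male controls, and Nat8, the last enzyme of mercapturate formation, fell by 0.40. Lap3 (0.38) and Abcg2 (0.29) rose in female controls. Among vehicle-treated mice 10 of the 14 fell in Alport males and 10 in Alport females. The shares of all genes that were lower were 24.2% and 21.8%.

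Genes for transcription factors known to act on glutathione transferase genes were read as a list of 14. Nfe2l2, which encodes NRF2, had NR log2 differences of 0.09 and -0.04 in male and female controls and 0.18 and 0.13 in male and female Alport mice, none called by edgeR. Keap1, its inhibitor, and Nr1i2, the pregnane X receptor, were also not called in any of the 4 NR comparisons. Nr1i3, the constitutive androstane receptor, rose 2.23 on the log2 scale in male controls (adjusted p = 0.017, edgeR) from a mean of 0.459 CPM. Ppara fell by 0.44 with NR in female controls, and without NR it was lower in Alport than in control mice, by 0.94 in males and 1.14 in females. Between the sexes, Nr1i3 was higher by 1.73 and Nr1i2 by 0.92 in female than in male vehicle-treated controls. Of the 14 regulators, 1 rose with NR in male controls and 2 fell in female controls, where 4.53% and 6.31% of all genes were called. In Alport mice of either sex 0 were called. At an unadjusted p under 0.05 there were 0 in Alport males and 6 in Alport females, where 5.06% and 16.7% of all genes passed.

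The genes whose log2 CPM followed each member most closely over the 32 mice were sought among 14029 genes outside the glutathione transferases. These correlations are descriptions: all points share the same libraries, sexes and treatments. Gsta1 and Mgst1 had the same nearest gene, the carbonyl reductase Cbr3 (Pearson r = 0.95 and 0.92), with Fdps (0.92) and Creg1 (0.92) second. Gsta2 was closest to the fatty acid hydroxylase Cyp4a10 (0.95) and to Abcc4 (0.95), and Gsta3 to Retsat (0.96) and Ehhadh (0.94). Gsta4 was closest to Akr1c12 (0.95) and Pkm (0.94), and Gm10639 to the glucuronosyltransferases Ugt1a2 (0.92) and Ugt1a1 (0.92). Gstm1 was closest to the retinal dehydrogenase Aldh1a1 (0.91) and the quinone reductase Nqo1 (0.90). Gstm2 (Mapk3 0.86, Pla2g16 0.76), Gstm4 (Idh1 0.79, Tm7sf2 0.76) and Gstm3 (Fabp1 0.72, Ces2e 0.69) had less close neighbours.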

How the data were processed

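RNA-Seq was performed on kidney cortex of 32 mice, 4 in each of 8 groups given by the labels. Per the labels and the study's methods, RNA was isolated with spin columns, libraries were made after poly(A) selection, and the reads were aligned and counted with BioJupies. The build in the submitters' processing notes is mm10, and the counting annotation, the use of strand and the assignment of reads common to several genes are not given in the sources used here. The deposited counts are raw read counts per gene symbol. A second deposited table holds log10 values, the base-10 logarithm of CPM plus 1. It followed from the counts to within 4.44e-16 and was not used further. All 32 columns were mapped to mice by name, and 0 were left unmapped.

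Counts were tested as deposited with edgeR 4.0.16 in R 4.3.3 (quasi-likelihood test, TMM scaling, and filterByExpr with its minimum count set to 10), 8 mice to a comparison and 16 to an interaction, with Benjamini-Hochberg adjustment over all genes tested and a threshold of 0.05. The sex-genotype interaction also needed a 2-fold difference. CPM are read counts scaled to a common library size, which is the total times its TMM factor. The factors ranged from 0.829 to 1.25. Confidence intervals are the estimate ± 1.96 SE. Nothing says that samples of a group share a mouse, and the 48 pairs of mice within groups all differed beyond counting noise (lowest chi-square per degree of freedom 7.56). All p-values measure the spread between these mice, and intervals cover no error of read assignment.

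Alternatives were DESeq2 1.42.0, limma-voom (limma 3.58.1), RLE scaling, no filter, and a filter of at least 10 counts in every mouse. Others were 1 fit of all 32 mice, leaving out each mouse, the replicate number as a block, and summed counts of close paralogs. For the sex-genotype interaction the fold limit was also dropped. On counts simulated from the Alport and control males, edgeR found 96 of 97 genes changed 4-fold and made 12 false calls among 15099 genes. For the interaction of NR and sex in controls it found 82 of 98, with 10 false calls among 15214 genes. In the first simulation only 193 of the tested genes were changed, up and down alike. In the real comparison of these males 51.0% of genes were called. The simulation therefore did not test scaling or false calls under so wide a change. The labels do not say whether mice with the same replicate number are matched. Correlations of their deviations from group means ran from -0.209 to 0.361 over 40 pairs, and 6 exceeded 0.1. For Alport against control females the values of replicates 2, 3 and 4 were 0.199, 0.206 and 0.120. Matching by litter was not tested, since no litter is named.

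All 10 members were named wherever tested. Of other lists, called genes were named, up to 4 with the smallest adjusted p for glutathione supply, export and regulators, and Nfe2l2, Keap1, Nr1i2, Nr1i3 and Ppara were looked up in any case. The most alike genes were the 2 with the highest Pearson r among genes with a mean of at least 1 CPM. Members, lists and tests were chosen with earlier results of these data known. Transcript sequences and positions came from GENCODE M21 and upstream sequences from RefSeq on GRCm38.p6, with identities from Biopython 1.88. Gsta4 had no RefSeq promoter entry in the table used.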

Additional observations from a re-analysis of the deposited data

Results flagged for a closer look

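In each group of 4 mice the highest and lowest value of each gene were compared with the others, on the log2 scale, by Dixon's ratio of the gap to the range. Of 80 sets of values 6 held a mouse beyond the 95% critical value, where chance alone flags about 1 set in 20. Gsta2 was lowest in replicate 2 of the NR-treated male controls, at 596.157 CPM with the next mouse at 910.3. This mouse also had the lowest Gsta1, Gsta4, Gm10639 and Mgst1 of its group. Gsta3 was lowest in replicate 1 of the NR-treated male Alport mice, at 99.2747 CPM with the next at 198.928. Replicate 2 of the vehicle-treated male Alport mice was lowest for Gsta4, at 15.3756 CPM against 21.4524 for the next mouse, and for Gm10639, at 2.79926 CPM against 5.45853. Gm10639 was lowest in replicate 3 of the vehicle-treated female controls, at 47.5953 CPM against 69.788. Gstm4 was highest in replicate 2 of the vehicle-treated female Alport mice, at 11.4962 CPM against 9.50665. What set these mice apart was not tested.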

How the results depend on the processing

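Of the alternatives, 2383 values kept their direction and their side of the threshold, 91 lost a call, 39 gained one and 4 changed sign from a called value or to one. Sign changes where neither value was called are counted among the first. The number of members called moved by over 1.5 times in these cases. In 1 fit of all 32 mice it was 1 instead of 4 for Alport against control in males, 7 instead of 0 for NR in male Alport mice, and 1 instead of 8 for NR in female controls. DESeq2 called 5 members instead of 0 for NR in male Alport mice and 2 instead of 0 for the NR-sex interaction in controls. Leaving out 1 mouse at a time, the count ran from 2 to 4 for Alport against control in males and from 4 to 5 in females, from 0 to 7 for NR in male and from 3 to 8 in female Alport mice, from 4 to 8 in male and from 8 to 9 in female controls, from 2 to 7 for NR-treated Alport against vehicle-treated control males and from 6 to 9 in females, and from 0 to 3 for the NR-sex interaction in controls. These counts include Gstm3, which passed the filter and was called in 5 of the 8 such fits for NR in female controls and in 8 of 8 for NR-treated Alport against vehicle-treated control females. Without it these 2 ranges were 8 to 8 and 5 to 8. Summed over close paralogs, the change of Gsta1 in Alport males became -0.0212, that of Gstm2 in Alport males -0.0796, that of Gstm4 in NR-treated Alport against vehicle-treated control males 0.879 and that of Gstm2 between the sexes in controls -0.0918, since Gsta2 and Gstm1 dominate the sums. The labels do not say whether the replicate numbers pair the mice. With the number as a block, 5 members instead of 7 were called for NR in female Alport mice, 6 instead of 8 in male controls, and 5 instead of 7 (males) and 6 instead of 8 (females) for NR-treated Alport against vehicle-treated controls. The last female counts, 6 and 8, include Gstm3. The cause of the other changes was not tested. At 16621944 counts or more per mouse, Gstm3 and vehicle-treated Gsta1 in males remain near the limit of detection.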
